A study of Mus musculus with 14 samples.

Results

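Transcripts of 10 amino acid transporter genes were followed in MEFs (fibroblasts cultured directly from mouse embryos, not an established line) during the first days of reprogramming by retroviruses. The genes were Slc7a5, Slc3a2, Slc7a11, Slc7a1, Slc7a3, Slc38a1, Slc38a2, Slc38a4, Slc1a4 and Slc1a5. They were listed by name as a family, with earlier results of these data known. Counts among the 10 beside shares of all genes are therefore a description. A gene was read from the array probes that the platform annotation gives to it alone. Where it had several, the probe with the highest mean over all arrays was used, the 1 step of this reading that used a measured level. All 10 were measured, on 11 probes, among 19938 genes in all.

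MEFs were infected on day 0 with retroviruses for 3 reprogramming factors, Sox2, Klf4 and Oct4, together called SKO, or with a green fluorescent protein (GFP) virus as the control. From day 2 all cells, controls included, were in embryonic stem cell medium of DMEM, 15% fetal bovine serum, non-essential amino acids, GlutaMax, sodium pyruvate, antibiotics, β-mercaptoethanol and LIF, either plain or with 50 µg/ml of vitamin C. Lysates of the GFP cells were taken on day 3, and of the SKO cells on days 3, 4, 5, 6, 8 and 10. Each condition and day had 1 array, which gave 6 treated and 6 untreated SKO arrays, and 1 treated and 1 untreated GFP array. The sources used here do not give the MEFs' strain, the embryos' age or whether embryos were pooled. Retroviral infection usually reaches only a part of the cells, and the lysates were not sorted as far as the labels say, so each may mix cells with different sets of factors. No condition had a replicate. The p-values below rest on how the vitamin C difference varied between the days of this 1 time course and say nothing of independent cultures.

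Amino acids enter cells mainly through membrane carriers, each of which takes a group of related amino acids. SLC7 proteins work as exchangers or as uniporters, and several of them need the single-pass heavy chain encoded by Slc3a2 (4F2hc, also CD98) to reach the plasma membrane. The SLC38 carriers covered here pull small neutral amino acids inward with sodium, while Slc1a4 and Slc1a5 swap neutral amino acids in a sodium-dependent exchange. Many of these genes are known targets of ATF4, the transcription factor that cells make when amino acids run short or the endoplasmic reticulum is stressed. Leucine and arginine that enter by these carriers are sensed at the lysosome by the kinase complex mTORC1.

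ATF4 and its C/EBP partners bind a composite element, and the promoters of 6 of the 10 genes (9 entries) were in the RefSeq promoter table for mouse build GRCm38.p6. The core searched for was TGATGNAA on both strands, in the 250 bases before each start site. It was found in 1 of the 9 entries, that of Slc7a11, and in 3.45% of the 32851 promoters in the table. A search of all 300 bases, to 50 bases after the start, was chosen after a match across the Slc1a4 start site had been seen. It found 2 of 9 entries, Slc7a11 and Slc1a4, against 3.97% of promoters. Both are printed because they are the transporter promoters here that hold the letters of this element, with each match in capitals. The Slc7a11 run is the 250 bases before the start (chr3:50443614-50443863, minus strand), with 1 match per strand, beginning 66 and 47 bases before the start. The Slc1a4 run is 30 bases around the start (chr11:20332699-20332728, minus strand), with a match on the opposite strand that begins 4 bases before it.
Slc7a11: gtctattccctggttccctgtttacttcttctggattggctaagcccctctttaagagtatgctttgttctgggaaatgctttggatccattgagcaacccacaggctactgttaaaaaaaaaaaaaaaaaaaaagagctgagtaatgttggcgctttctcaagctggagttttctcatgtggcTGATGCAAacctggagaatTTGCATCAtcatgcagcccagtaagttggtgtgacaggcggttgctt
Slc1a4: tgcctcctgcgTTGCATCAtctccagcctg
The core of the antioxidant response element, TGACNNNGC on both strands, was in 2 of the 9 entries, those of Slc38a2 and Slc7a1, and in 10.16% of all promoters over the same 250 bases. These matches describe letters only. Binding was not measured, and promoters of Slc7a5, Slc7a3, Slc38a1 and Slc1a5 were not analysed here.

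The signals were log2 values, on which 1 unit is a 2-fold difference, and the medians of the 14 arrays lay between 5.19 and 5.28. Pou5f1, the gene of Oct4, was at 4.10 and 4.06 in the GFP cells with and without vitamin C and between 11.2 and 12.6 on the 12 SKO arrays. The other factors differed less: Klf4 was at 7.51 and 7.43 in GFP cells and between 8.37 and 9.28 in SKO cells, and Sox2 at 4.81 and 4.28 against 5.14 to 6.28. As a check of the cell type, the probes of all 14 fibroblast markers measured lay above the 75th percentile of mean signals; their mean was 10.5 to 10.7 in GFP cells and 9.86 on both SKO arrays of day 3. The deposited arrays also carried an alternation between days. A score was made over 500 other genes. They had the largest difference of days 4 and 6 from days 3 and 5, with days 4 and 5 weighted most. The choice of these genes fixes how those 4 days separate, and only days 8 and 10 and the GFP arrays add to it. It lay between -0.56 and -0.44 on the SKO arrays of days 3, 5 and 10 and between 0.08 and 0.47 on those of days 4, 6 and 8, with the GFP arrays at 0.37 and 0.47. Day 10 thus fell on the side of day 3 and day 8 on the side of day 4, and both pairs of days are compared below. On day 8 the score was 0.08 with and 0.47 without vitamin C, beside 0.46 and 0.43 on day 4. Days 8 and 4 were thus less closely matched with vitamin C than without it. The GFP arrays fell on the side opposite to SKO cells of day 3.

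Over the course, 6 of the 10 transporters changed between day 3 and day 10 in SKO cells. Slc38a4, Slc7a5, Slc7a1 and Slc38a1 fell, by 3.81-fold, 3.13-fold, 2.17-fold and 1.62-fold, while Slc7a3 rose 9.01-fold and Slc7a11 rose 2.76-fold. So of the 5 SLC7-system genes, the arginine and lysine carriers Slc7a1 and Slc7a3 went in opposite directions, and so did both light chains that pair with Slc3a2. Across all genes 6.55% rose and 5.64% fell by the same rule, which was an adjusted p under 0.05 in limma's moderated test with Benjamini-Hochberg adjustment over all 19938 genes. The median difference of the 10 transporters was -0.35 and that of all genes -0.02. In bulk RNA, fewer cells of a type and less RNA per cell cannot be told apart.

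**Figure D1:**
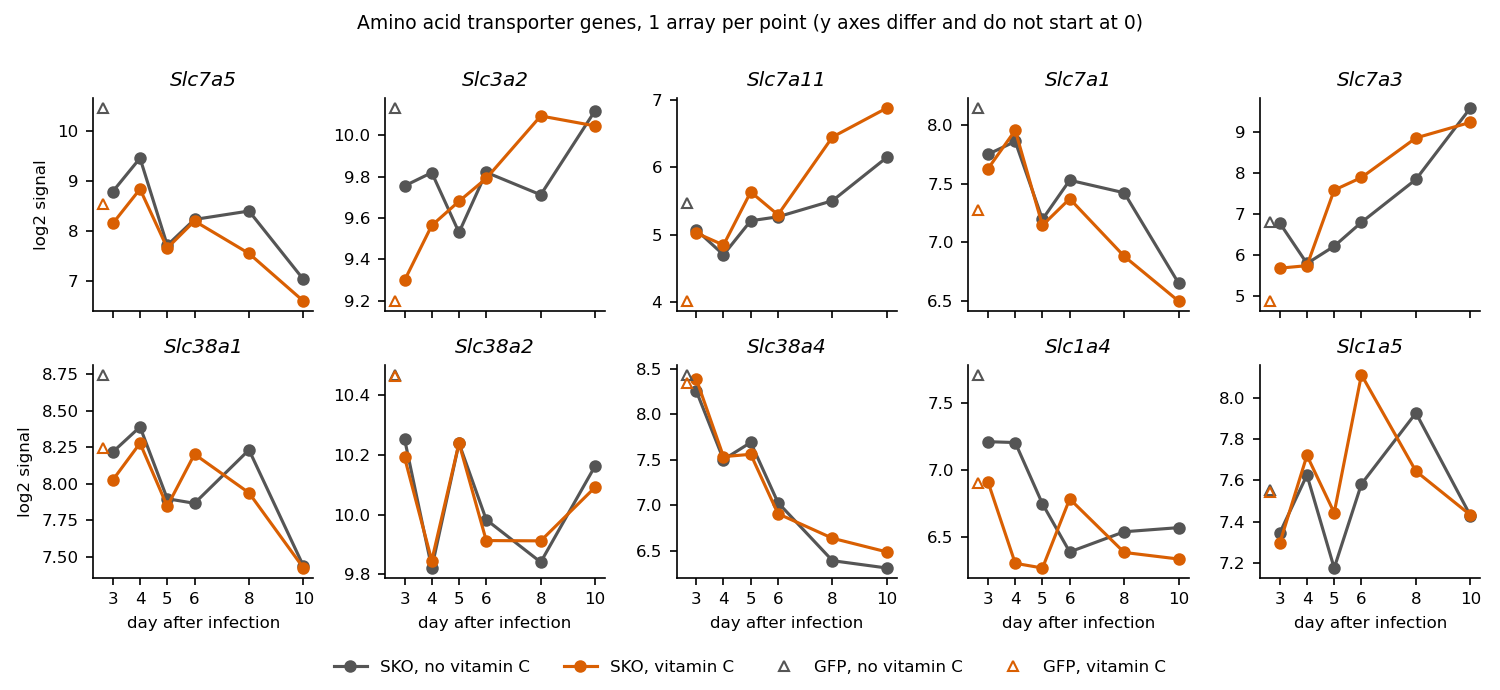
Log2 signal of each transporter gene (y axis, own scale per panel, not starting at 0) against the day after infection (x axis, days 3 to 10). Filled circles joined by lines are SKO arrays, open triangles GFP arrays of day 3 (drawn slightly to the left), orange with and grey without vitamin C, 1 array per point; Slc7a3 climbs and Slc38a4 falls along both lines, and the orange triangle lies more than 0.5 below the grey one for Slc7a5, Slc3a2, Slc7a11, Slc7a1, Slc7a3, Slc38a1 and Slc1a4.

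Slc7a5 encodes LAT1, the main carrier of leucine and other large neutral amino acids in dividing cells. Its log2 signal without vitamin C was 8.79, 9.45, 7.72, 8.23, 8.40 and 7.04 on days 3, 4, 5, 6, 8 and 10. With vitamin C it was 8.15, 8.84, 7.66, 8.20, 7.56 and 6.61 in the same order. Both lines peaked on day 4 and were lowest on day 10, and the arrays of days 3 and 10 did not overlap. The fitted difference of day 10 from day 3 was -1.65 ± 0.20 (SE; limma adjusted p = 0.000325), and that of day 8 from day 4 was -1.17 ± 0.20 (adjusted p = 0.0137).

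Slc3a2, the shared heavy chain, had another course; its difference from the course of Slc7a5 was not tested. Its signal was 9.75, 9.82, 9.53, 9.82, 9.71 and 10.12 without vitamin C on days 3, 4, 5, 6, 8 and 10, and 9.30, 9.56, 9.68, 9.79, 10.09 and 10.04 with it. The day 10 arrays were above those of day 3 in both arms, most clearly with vitamin C. The difference, 0.56 ± 0.19, did not pass the threshold (limma adjusted p = 0.0843; 0.0303 with an intensity trend in the variances).

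Slc7a11 encodes xCT, the light chain that imports cystine in exchange for glutamate and so feeds glutathione synthesis. It stood at 5.07, 4.70, 5.21, 5.26, 5.50 and 6.15 on the 6 days without vitamin C, and at 5.03, 4.85, 5.63, 5.29, 6.45 and 6.88 with it. Both lines were lowest on day 4 and highest on day 10. Day 10 exceeded day 3 by 1.46 ± 0.23 (limma adjusted p = 0.00142) and day 8 exceeded day 4 by 1.20 ± 0.23 (adjusted p = 0.0222). These low signals lie where the authors' normalization compresses differences, so the folds can be understated.

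Slc7a1 encodes CAT1, the broadly expressed uniporter for arginine, lysine and ornithine. Without vitamin C its signal was 7.75, 7.86, 7.20, 7.53, 7.42 and 6.65 on days 3, 4, 5, 6, 8 and 10, and with it 7.63, 7.96, 7.15, 7.37, 6.88 and 6.50. Like Slc7a5 it was highest on day 4, dipped on day 5 and was lowest on day 10 in both arms. The difference of day 10 from day 3 was -1.12 ± 0.16 (limma adjusted p = 0.00103) and that of day 8 from day 4 was -0.76 ± 0.16 (adjusted p = 0.0372).

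Slc7a3 encodes CAT3, a carrier of the same cationic amino acids that is known for expression in brain and in pluripotent cells. It read 6.78, 5.80, 6.22, 6.80, 7.84 and 9.58 without vitamin C and 5.68, 5.74, 7.58, 7.89, 8.85 and 9.23 with it. The treated line was lower on day 3, about level on day 4, above the other on days 5, 6 and 8, and slightly below it on day 10. Day 10 exceeded day 3 by 3.17 ± 0.47 (limma adjusted p = 0.00106), and day 8 exceeded day 4 by 2.57 ± 0.47 (5.95-fold, adjusted p = 0.0181). From its lowest to its highest day mean Slc7a3 spanned 12.4-fold, beside 5.00-fold for Slc7a5.

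The 3 SLC38 genes lie next to each other on chromosome 15, in the order Slc38a1, Slc38a2, Slc38a4 with no other coding gene between them in the RefSeq table, and their courses differed. Slc38a4 encodes SNAT4, a system A carrier that is expressed from the paternal allele in mouse embryonic and placental tissue. Its signal without vitamin C was 8.26, 7.50, 7.69, 7.03, 6.39 and 6.31 on the 6 days, and with it 8.39, 7.53, 7.56, 6.91, 6.64 and 6.48. The GFP cells had 8.35 with and 8.44 without vitamin C, close to SKO cells of day 3. The fall from day 3 to day 10 was almost the same in both arms, at -1.95 without and -1.91 with vitamin C, and the fitted difference was -1.93 ± 0.15 (limma adjusted p = 1.76e-05). Day 8 differed from day 4 by -1.01 ± 0.15 (adjusted p = 0.00631).

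Slc38a2 encodes SNAT2, the system A carrier whose amount rises in many cells when amino acids are withdrawn. On days 3 to 10 it was at 10.25, 9.82, 10.24, 9.98, 9.84 and 10.16 without vitamin C and at 10.19, 9.85, 10.24, 9.91, 9.91 and 10.09 with it. It switched between higher signals on days 3, 5 and 10 and lower ones on days 4, 6 and 8. Day 10 differed from day 3 by -0.10 with a 95% interval from -0.39 to 0.20 (limma adjusted p = 0.744).

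Slc38a1 encodes SNAT1, a glutamine carrier of the same system. It was at 8.22, 8.39, 7.90, 7.87, 8.23 and 7.43 without vitamin C and at 8.02, 8.28, 7.84, 8.20, 7.94 and 7.42 with it, lowest on day 10 in both arms. The difference of day 10 from day 3 was -0.69 ± 0.17 (limma adjusted p = 0.018). It no longer passed when any 1 of the 4 arrays of these days was left out, with adjusted p from 0.0741 to 0.132. A second probe of the gene was at 7.95, 6.89, 7.47, 6.77, 6.42 and 7.11 without vitamin C and 7.80, 6.84, 7.47, 6.65, 6.80 and 7.19 with it. That probe was highest on day 3 and lower on days 4, 6 and 8 than on day 5. Both probes read lower on day 10 than on day 3, and in both arms the probe used rose from day 3 to day 4 while the second probe fell.

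Slc1a4 and Slc1a5 encode ASCT1 and ASCT2, exchangers of serine, alanine and cysteine and, for ASCT2, glutamine. Slc1a4 was at 7.21, 7.21, 6.75, 6.39, 6.54 and 6.57 without vitamin C and at 6.91, 6.31, 6.27, 6.79, 6.39 and 6.34 with it. Its day 10 arrays were below those of day 3 in both arms, but the difference of -0.61 ± 0.24 did not pass (limma adjusted p = 0.131). Slc1a5 was at 7.34, 7.63, 7.17, 7.58, 7.93 and 7.43 without vitamin C and at 7.29, 7.72, 7.44, 8.11, 7.64 and 7.43 with it. Its ends were nearly level, with a difference of 0.11 ± 0.19 (adjusted p = 0.788) between days 10 and 3.

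Between days 4 and 8, 5 transporters passed: Slc7a3 and Slc7a11 were higher and Slc7a5, Slc7a1 and Slc38a4 lower on day 8. All 5 also passed, in the same direction, between days 3 and 10. Among all genes 1.85% were higher and 0.492% lower by this rule. None of the 5 calls held without the untreated or the treated array of day 4, and 1, that of Slc38a4, held without the treated array of day 8. The alternation score was 0.08 on that array, beside 0.46 on the treated array of day 4, and its part in the calls was not tested. In a test of any difference among the 6 days, Slc7a1, Slc7a3, Slc7a5, Slc7a11, Slc38a1 and Slc38a4 passed, 6 of 10, beside 18.9% of all genes. Without day 10 the call of Slc38a1 was lost (limma adjusted p = 0.396), as it was without day 4 (0.0718). With day 5 in place of day 3 as the base for day 10, on the same side of the alternation, 3 of the 10 passed. They were Slc7a3, Slc7a11 and Slc38a4, beside 345 of all 19938 genes. The values then were -0.60 for Slc7a1 (limma adjusted p = 0.109), -0.87 for Slc7a5 (0.059) and -0.44 for Slc38a1 (0.263).

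**Figure D2:**
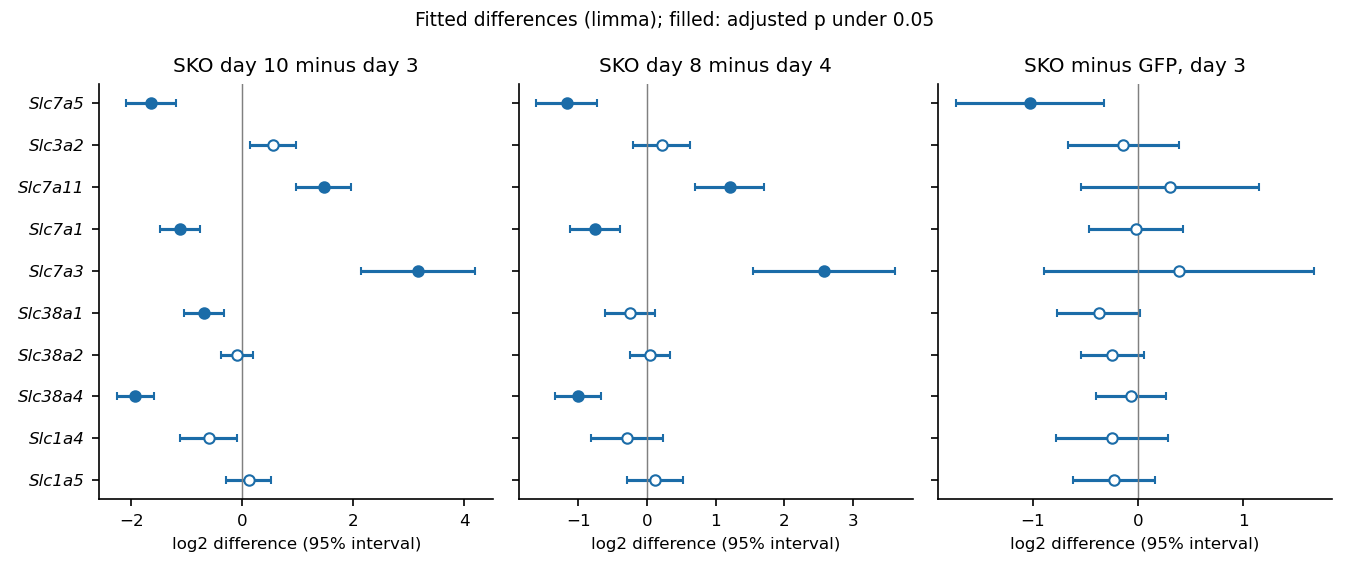
Fitted log2 difference of each transporter (points) with its 95% interval (bars) for SKO day 10 minus day 3, SKO day 8 minus day 4 and SKO minus GFP on day 3, from limma fits of 12 arrays (left and middle) or 14 (right); x axes differ. Filled points passed an adjusted p of 0.05: 6, 5 and 1 genes.

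Marker genes of cell types and of growth moved over the same days. Of 15 macrophage markers 12 rose from day 3 to day 10 and none fell, and their mean went from between 4.63 and 4.70 to between 5.90 and 6.04. All 14 cell cycle genes measured fell, with a mean of 8.15 to 8.37 on day 3 and 7.31 to 7.38 on day 10. All 10 interferon response genes rose, as did 7 of 13 pluripotency markers and 4 of 10 epithelial markers, 1 of which fell. Among fibroblast markers 3 of 14 rose and 2 fell. On a log2 array scale no marker can be called absent. Between days 4 and 8, 2 of 15 macrophage markers were higher and 2 of 14 cell cycle genes lower, beside 1.85% and 0.492% of all genes. Whether cell populations or growth state changed, and their part in the transporter differences, was not tested.

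The alternation between days reached the transporters unequally. Its measure was the mean of 2 differences, so days 4 and 5 weigh most. The first was day 4 minus the mean of days 3 and 5, and the second the mean of days 4 and 6 minus day 5. By this measure Slc7a5 was higher, at 1.03 ± 0.16 (limma adjusted p = 0.00439), as was Slc7a1, at 0.49 ± 0.13 (adjusted p = 0.03). For both the mean of day 6 lay below that of day 3, at 8.22 against 8.47 for Slc7a5 and 7.45 against 7.69 for Slc7a1. By the same measure Slc38a4 and Slc38a2 were lower, at -0.42 ± 0.12 (adjusted p = 0.0408) and -0.37 ± 0.11 (adjusted p = 0.0422). These are 2 of 10 in each direction, beside 6.53% of all genes higher and 5.94% lower. For Slc38a1 the probe used gave 0.33 (adjusted p = 0.133) and the second probe -0.74 (adjusted p = 0.00523).

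SKO cells were next set against GFP cells on day 3. These arrays differed in virus and also lay on opposite sides of the alternation, so the 2 cannot be told apart. The alternation score was -0.46 with and -0.45 without vitamin C in SKO cells, and 0.47 and 0.37 in GFP cells. Slc7a5 was 2.04-fold lower in SKO cells, the 1 transporter that passed. Its signal was 8.15 with and 8.79 without vitamin C in SKO cells, and 8.54 and 10.45 in GFP cells, so the groups overlapped and the untreated GFP array stood highest. The fitted difference was -1.03 ± 0.33 (limma adjusted p = 0.0453). Among all genes 9.22% were higher and 8.43% lower, so 1 lower and 0 higher of 10 is close to the background. The call was lost on centring the arrays (adjusted p = 0.0507), and without the untreated SKO array (0.155) or the treated one (0.175). Without the untreated GFP array the difference was -0.29 (0.498), and Slc7a11 passed instead, 1.22 higher in SKO cells (0.0167).

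No other transporter passed on day 3, with differences between -0.37 for Slc38a1 and 0.39 for Slc7a3. For Slc38a1 the direction depended on the probe: the second probe was 0.93 higher in SKO cells (limma adjusted p = 0.00524). With the probes used, no transporter was higher at an unadjusted p under 0.05 either. SKO cells of day 4, on the same side of the alternation as the GFP arrays, gave other calls. There 2 of the 10 passed, beside 1551 of all 19938 genes in either direction. Slc38a2 was lower than in GFP cells by this measure, at -0.63 (limma adjusted p = 0.011), as was Slc38a4 at -0.87 (0.00258), while Slc7a5 was at -0.35 (0.681). On day 3 itself all 14 cell cycle genes were higher in SKO cells, 8 of 14 fibroblast markers lower and 5 of 10 interferon response genes lower; their part in the difference of Slc7a5 was not tested.

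None of the 10 transporters passed limma's test for vitamin C in SKO cells, beside 186 of all genes (0.933%). That total was itself unstable: it was 66 without day 5, 23 without day 6, 46 without day 8 and 71 without day 10, and 364 with an intensity trend in the variances. At an unadjusted p under 0.05 there were 2 of 10, beside 11.6% of all genes, and with that trend 1 of 10 passed, Slc7a5 (adjusted p = 0.0483).

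Slc7a5 was lower with vitamin C on 6 of 6 days, with differences of -0.63, -0.62, -0.06, -0.03, -0.84 and -0.43 on days 3, 4, 5, 6, 8 and 10. The mean of these was -0.44 ± 0.12 (SE; limma adjusted p = 0.127). Treated and untreated arrays also differed in the alternation score, by 0.33 on day 6 and -0.39 on day 8. On the other days this difference of the score lay between -0.02 and 0.05. Its part in the vitamin C differences was not tested. Slc7a11 was higher on 5 of 6 days, with -0.05, 0.14, 0.43, 0.03, 0.95 and 0.73, and a mean of 0.37 ± 0.13 (adjusted p = 0.279).

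The cationic carrier Slc7a3 had the widest spread between days, with differences of -1.10, -0.05, 1.36, 1.09, 1.01 and -0.35 and a mean of 0.33 ± 0.27 (limma adjusted p = 0.723). Slc1a4 was lower on 5 of 6 days, at -0.30, -0.90, -0.48, 0.40, -0.15 and -0.23 (mean -0.28 ± 0.14, adjusted p = 0.477). Slc38a2 moved least, with daily differences from -0.07 to 0.07. The other means lay between -0.16 for Slc7a1 and 0.09 for Slc1a5.

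The vitamin C difference did not drift along the days in a way that passed for any of the 10, beside 7 genes in all (0.0351%). At an unadjusted p under 0.05 there was 1, Slc7a11, beside 7.87% of all genes. Its difference grew by 0.12 ± 0.04 per day (limma adjusted p = 0.502).

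**Figure D3:**
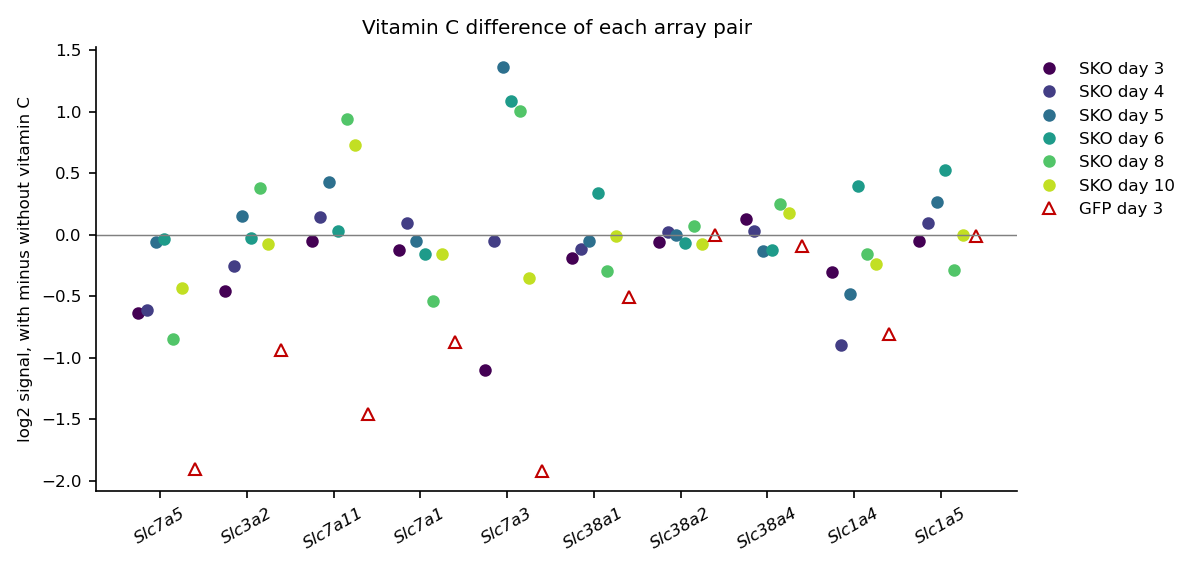
Log2 signal with vitamin C minus without it (y axis) for each transporter (x axis), 1 point per pair of arrays: circles for SKO cells, coloured from day 3 (dark) to day 10 (light), and open triangles for GFP cells on day 3. All 6 circles of Slc7a5 lie below 0, and 6 triangles that lie over 0.5 below 0, all but that of Slc1a4, lie below every circle of the same gene.

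In GFP cells on day 3 the single pair of arrays differed more. Slc7a3 was at 4.88 with and 6.80 without vitamin C, Slc7a5 at 8.54 and 10.45, and Slc7a11 at 4.01 and 5.47. Slc3a2 was at 9.20 and 10.13, Slc7a1 at 7.28 and 8.15, Slc1a4 at 6.91 and 7.71, and Slc38a1 at 8.24 and 8.75. Those 7 genes had lower signals with vitamin C, and 6 of them, all but Slc1a4, by more than on any SKO day. Slc1a5 (7.55 and 7.55), Slc38a2 (10.46 and 10.47) and Slc38a4 (8.35 and 8.44) differed by less than 0.1. These counts were made for the transporters only. The same counts were not made over all genes, so whether the transporters stood out on this pair of arrays cannot be read from them.

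The difference between GFP and SKO cells in their vitamin C response was tested as an interaction, in which the GFP side rests on 1 array of each kind. It passed for none of the 10, and for 0 of all genes (0%) by limma. Beside 6.91% of all genes in either direction and 3.43% in the negative one, 5 of 10 had an unadjusted limma p under 0.05. All 5 had a more negative vitamin C difference in GFP cells than in SKO cells. They were Slc7a3 at -2.25 ± 0.72, Slc7a11 at -1.83 ± 0.35, Slc7a5 at -1.47 ± 0.31, Slc3a2 at -0.89 ± 0.29 and Slc7a1 at -0.72 ± 0.25, with limma adjusted p between 0.562 and 0.664. The median over the 10 was -0.62, beside 0.02 over all genes. On the same pair of arrays the mean of the ATF4 and amino acid stress genes was 6.39 with and 7.20 without vitamin C, and that of the interferon response genes was 2.07 higher with it; their part was not tested.

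The remaining genes of amino acid handling were followed in lists, each read beside the background shares above. Of 44 other transporters of the plasma membrane and lysosome, 5 rose and 1 fell from day 3 to day 10. Slc38a5, a glutamine and histidine carrier, rose 5.77-fold (2.53 ± 0.30, limma adjusted p = 0.00027). Slc43a2, a carrier of large neutral amino acids that works without a heavy chain, rose 3.12-fold, and the cationic carrier Slc7a2 rose 2.36-fold. The neutral amino acid carrier Slc6a15 fell 3.48-fold. None of 8 mitochondrial carriers passed by limma.

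In the serine, proline and one-carbon list 7 of 9 fell and none rose, with a median difference of -0.79 beside -0.02 for all genes. Phgdh, which encodes the first enzyme of serine synthesis, fell 3.72-fold (-1.89 ± 0.15, limma adjusted p = 2.31e-05), the mitochondrial folate enzymes Mthfd2 and Aldh1l2 3.03-fold and 2.61-fold, and Psat1, the next enzyme of serine synthesis, 2.22-fold. Of 18 aminoacyl-tRNA synthetases 6 fell and none rose, led by Tars, Cars, Iars and Vars at 1.65-fold to 1.80-fold.

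Among 21 ATF4 and stress genes 1 rose and 2 fell from day 3 to day 10, close to the shares of all genes (6.55% and 5.64%). Asns, which makes asparagine, fell 2.56-fold, Eif4ebp1, a brake on translation, fell 1.75-fold, and Cth, which makes cysteine from cystathionine, rose 2.35-fold. In the list on the use of the transported amino acids 3 of 20 rose and 2 fell. Glul, glutamine synthetase, rose 2.76-fold, Cth is counted here too, the arginine-splitting Arg1 rose 2.20-fold, and Gss, of glutathione synthesis, fell 1.49-fold. Of 26 genes of amino acid sensing by mTORC1, 2 rose and none fell, again close to those shares: the leucine sensor family member Sesn1 (2.08-fold) and Castor2, a partner of the arginine sensor (1.90-fold).

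Between days 4 and 8 fewer of these genes passed. Slc38a5 and Slc43a2 were again higher, by 2.72-fold and 2.34-fold, and Slc1a6, a glutamate carrier, was 1.64-fold lower, the 3 of 44 other transporters that passed. Psat1, Phgdh and Mthfd2 were lower by 1.84-fold, 1.79-fold and 1.64-fold. Glul was 2.07-fold, Cth 1.91-fold and Sesn1 1.66-fold higher. None of 18 synthetases passed by limma.

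**Figure D4:**
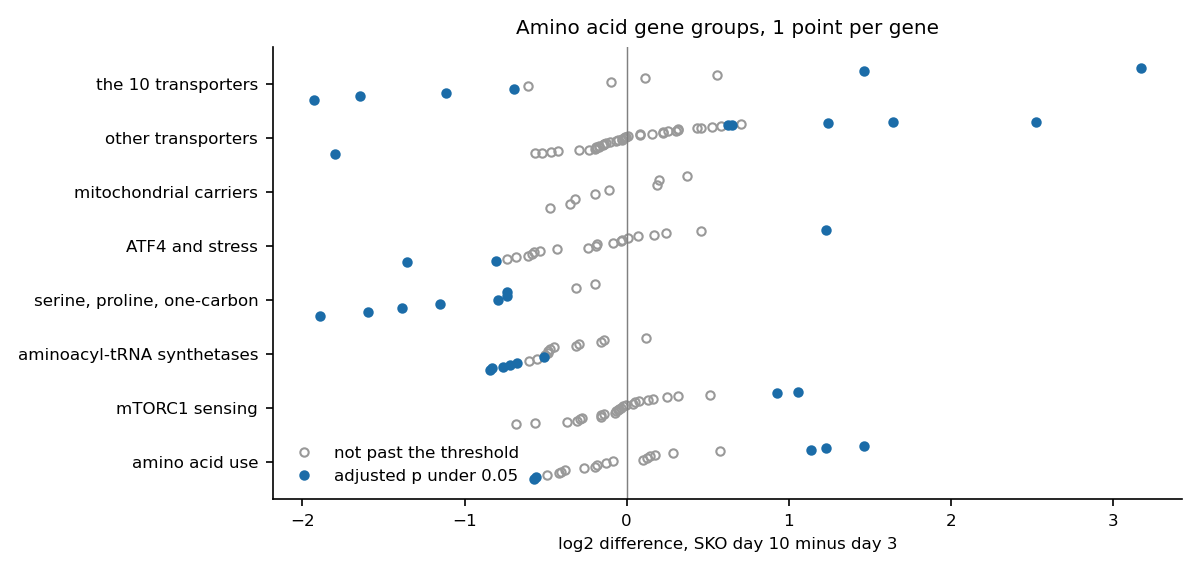
Log2 difference of SKO day 10 from day 3 (x axis) for the genes of 8 lists of amino acid handling (rows), 1 point per gene, spread vertically by rank within a list for legibility. Filled points passed an adjusted p of 0.05: 6 of the 10 transporters, split to both sides, 6 of 44 other transporters, and 7 of 9 serine, proline and one-carbon genes, all below 0. Signal levels differed between lists: 8 of the 10 but 6 of the 44 had a mean above the 75th percentile of all genes.

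Vitamin C in SKO cells lowered 3 of 9 genes of the serine, proline and one-carbon list and 3 of 21 ATF4 and stress genes and raised none of either. Aldh1l2 was 2.22-fold lower (-1.15 ± 0.19, limma adjusted p = 0.0196), Mthfd2 1.51-fold and Phgdh 1.46-fold. Trib3, a pseudokinase gene that ATF4 induces, was 1.90-fold lower (adjusted p = 0.0123), as were Vldlr (-0.58) and Stc2 (-0.41). None of the 44 other transporters, the 8 mitochondrial carriers, the 18 synthetases, the 26 sensing genes or the 20 genes of amino acid use passed by limma. Of interferon response genes 7 of 10 were higher with vitamin C, as were 2 of 13 pluripotency markers and 1 of 14 fibroblast markers, with 0 of 15 macrophage markers and 0 of 14 cell cycle genes called.

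In SKO against GFP cells on day 3, 4 of the 44 other transporters were higher and 5 lower, close to the shares of all genes (9.22% and 8.43%). Slc6a15 was 5.44-fold higher in SKO cells, and the taurine carrier Slc6a6 1.70-fold. The glutamate carriers Slc1a3 and Slc1a6 were 2.60-fold and 2.18-fold lower. Of ATF4 and stress genes 2 of 21 were higher and 4 lower, led by Cth (3.78-fold higher), Sesn2 (2.15-fold lower), Atf5 (1.87-fold lower) and Nupr1 (1.83-fold higher). Of the 26 sensing genes 4 were higher and 7 lower, led by Sesn3, Lamtor1, Sesn2 and Castor2, all lower by 1.92-fold to 2.24-fold. The mean of this list was 7.205 to 7.253 in GFP cells. In SKO cells it was 6.976 to 7.102 on days 3, 5 and 10 and 7.082 to 7.242 on days 4, 6 and 8. The part of the alternation in these differences was not tested.

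The genes whose signal ran most like a transporter's are given as a description over the 14 arrays, which share days, virus and the alternation. They were ranked by Pearson r among 5565 genes with an SD of at least 0.3. For Slc7a5 they were Cacna1c (0.956), its fellow transporter Slc38a1 (0.952) and Rap1gds1 (0.950). For Slc7a1 they were Lbh (0.960), Rin1 (0.952) and Tnk2 (0.933), and Slc7a1 and Slc7a5 themselves reached 0.927. For Slc38a1 they were Ncs1 (0.962), Actn1 (0.960) and Rap1gds1 (0.954). All likeness values of Slc38a1 rest on the probe used, and its second probe, which ran another course, was not ranked.

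Of the genes that rose, Slc7a3 ran most like Cpeb4 (0.949), P3h2 (0.936) and Sulf1 (0.928), and Slc7a11 like Ahcyl2 (0.933), Slc7a3 (0.919) and Zfp292 (0.916). Slc3a2 had weaker matches, in Cd46 (0.868), the leukocyte tetraspanin gene Cd53 (0.819) and Cpeb4 (0.797). Slc1a4 ran most like Aldh1l2 (0.921), the stress gene Ddit3 (0.910) and Cpeb1 (0.902), and Slc1a5 like Shb (0.947), Ubqln4 (0.940) and Tmem189 (0.938). Nearest to Slc38a4 were Slc20a1 (0.957), Basp1 (0.957) and Bmpr1b (0.953), and to Slc38a2 Slc9a9 (0.933), Eml4 (0.894) and Mmp19 (0.873). The neighbours Slc38a1, Slc38a2 and Slc38a4 shared none of their 3 closest genes, but lists so short, from 5565 genes, seldom overlap. Among themselves r over the 14 arrays was 0.64 for Slc38a2 with Slc38a4, 0.597 for Slc38a1 with Slc38a4 and 0.079 for Slc38a1 with Slc38a2.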

How the data were processed

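The authors deposited 1 log2 signal per probe and array from mouse whole-transcript arrays; RMA and Partek are named in the submitters' processing notes, with versions not given in the sources used here. That the scale is log2 was read from the values, which run from 0.724 to 14.086. RMA usually includes a background correction and a quantile normalization between arrays before probes are summarised, and it compresses low signals. Of 28853 probes, 21789 had 1 gene symbol, 1621 several and 5443 none listed; the probe with the highest mean stood for each of 19938 genes, 19856 of them found in RefSeq. Nothing was normalized again.

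Linear models were fitted with limma 3.58.1 under R 4.3.3 (lmFit and eBayes), p-values were adjusted by Benjamini-Hochberg over all genes, and 0.05 was the threshold. SKO comparisons took 12 arrays with the day as a factor and vitamin C, which leaves 5 residual degrees of freedom; comparisons with GFP cells took all 14. The fits were also run on simulated data with planted differences. The noise there was independent between arrays, so that run says nothing on the fits where arrays of a day vary together. The day pairs the arrays with and without vitamin C, and deviations of paired arrays correlated across genes at r from 0.248 (day 6) to 0.677 (day 3).

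The transporters and gene lists were chosen with earlier results of these data known. Named were all 10 transporters, up to 4 genes per other list and comparison past the threshold with the largest differences, and the 3 genes most like each transporter. Alternatives were other normalizations, filters, variance models, probe rules, day codings and left-out arrays or days. Figures were drawn with matplotlib 3.10.9.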

Additional observations from a re-analysis of the deposited data

How the results depend on the processing

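Among single-gene values that passed in the report or under an alternative, the direction turned for 2, both with the other probe of Slc38a1, which was chosen after seeing the data: -0.74 for the alternation and 0.93 for SKO against GFP on day 3 (limma adjusted p = 0.00524), which made 2 transporters pass there. The sign also changed in 41 cases where neither value passed, such as Slc7a3 (-0.73) and Slc7a11 (-0.61) in SKO against GFP without the treated GFP array, so no direction is to be read from values that did not pass. With an intensity trend, 1 transporter passed for vitamin C in SKO cells. For day 8 against day 4, array weights left 2 transporters, and leaving out an array gave 0 to 5. For SKO against GFP on day 3, median centring left 0, day 4 in place of day 3 gave 2, and leaving out an array gave 0 to 1. Days 4, 6 and 8 alone left 2 for any day, beside 175 of all genes. Day 5 as the base left 3 for day 10, beside 345 of all genes. For the other alternatives that were run, each comparison's count of transporters stayed within 1.5 times that of the report. The arrays hold no replicate of any condition and day, so no culture-to-culture spread was available, and the causes of these changes were not tested. The day is the block that pairs treated with untreated arrays. In a fit of the SKO arrays without this replicate block, with a quadratic in the day instead, 0 transporters and 167 of all genes passed for vitamin C. The totals over all genes also moved. On leaving out 1 array they fell from 2430 to between 964 and 1511 for day 10 against day 3, and went from 467 to between 71 and 795 for day 8 against day 4. For SKO against GFP the total of 3519 went to 1558 without the treated GFP array, 2053 without the untreated and 1298 without the treated SKO array.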
